A study of Mus musculus with 12 samples.

Results

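The interleukin-1 (IL-1) family was examined in mouse striatal cells as 10 genes chosen by name, namely the ligands Il1a, Il1b, Il1f6 (interleukin-36α), Il1f9 (interleukin-36γ), Il33 and Il18, the inhibitors Il1rn and Il18bp, and the receptors Il1r1 and Il1rl1. They were selected with earlier results in view, since Il1a and Il1f6 were among the genes with the strongest induction in treated STHdhQ111 cells. Of the 10, 9 have a row among the 29428 genes of the table, and Il1b was not analysed here. RNA-seq was performed on STHdhQ7 and STHdhQ111, immortalized mouse striatal cell lines from the Coriell Institute. These lines carry huntingtin with 7 and 111 glutamine repeats on both alleles. Q7-C and Q111-C are nontreated cells. Q7-T and Q111-T were exposed for 24 h to 100 ng/mL murine IFNγ together with 5 μg/mL LPS. Each group has 3 libraries, and all cells were grown at 33 °C. Each genotype is represented by 1 line, so the repeat length and other differences between the lines cannot be told apart. The libraries of a group are described as biological replicates in the study's text. GEO's labels only number them and do not name separate cultures, and the p-values measure the spread between these libraries.

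IL-1 family ligands bind receptors that recruit the adaptor Myd88 and IRAK kinases and switch on NF-κB. IL-1α acts through Il1r1, with the shared subunit Il1rap, and the antagonist encoded by Il1rn occupies the same receptor without signalling. The IL-36 ligands bind Il1rl2, IL-33 binds the receptor encoded by Il1rl1 (ST2), and IL-18 needs Il18r1 and Il18rap and is neutralised by IL-18 binding protein (Il18bp). In the brain, microglia are a known source of IL-1, and the family is known for amplifying inflammation.

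Estimated counts summed to between 57505990 and 96417834 per library. Irf1 and Nos2, known targets of IFNγ and LPS, lay between 11.5 and 46.5 TPM (a transcript level scaled by length and library total) and between 0.733 and 2.58 TPM in the nontreated libraries, and between 127 and 595 TPM and between 43.9 and 817 TPM in the treated ones. Q7-T replicate 2 stood apart: its nearest library was Q7-C replicate 1, and its mean distance to its own group (root mean square log2 difference) was 1.03, against 0.363 to 0.738 in the other 11 libraries. Both are Q7 libraries. The counts of called members and of all called pathway genes are given below also without this pair, Q7-C replicate 1 and Q7-T replicate 2. So are the members' called differences that use these libraries. Counts for single lists of pathway genes, and for pathway genes that pass the filter in nontreated libraries alone, are given only with the pair. Of the neuronal markers, Snap25 and Syt1 did not exceed 0.025 TPM in any library and Rbfox3 has no row, while Map2 lay between 0.604 and 10.7 TPM and Tubb3, also a neuronal marker, between 16.2 and 17.8 TPM in Q7-C, 57.9 and 83.6 TPM in Q7-T, 2.56 and 4.88 TPM in Q111-C, and 23.1 and 26.6 TPM in Q111-T. In turn, the summed TPM of 4 mesenchymal markers lay between 2591 and 2969 in Q7-C and between 1779 and 2082 in Q7-T. In Q111 cells it lay between 3435 and 3546 in Q111-C and between 1443 and 1546 in Q111-T. Vim made up most of this sum, with means of 2493, 1848, 2462 and 1186 TPM in the same order of groups. Col1a1 averaged 265, 87.6, 791 and 264 TPM, and Col1a2 14.6, 4.17, 250 and 40.1 TPM. For the treated lines, both collagen genes thus ran opposite to the sum, with the larger mean in Q111-T. Thy1 did not exceed 0.157 TPM. The part of these marker shifts in the results below was not tested. Of 9 macrophage and microglia markers, 6 have a row, and none of these reached 0.5 TPM in any library (highest 0.479 TPM, Csf1r). For bulk RNA, fewer cells expressing a gene and less RNA per cell cannot be told apart.

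Promoter sequences from RefSeq (GRCm38.p6) were found for 8 of the 9 measured genes and searched on both strands, over 250 bases before each start, for the NF-κB consensus, an interferon-response core (GAAA, 2 bases of any kind, GAAA), TTCNNNGAA (a STAT site), TGANTCA (an AP-1 site) and TATAAA. The following 3 are shown since they belong to ligands with a large difference on treatment and to the antagonist that differed most between the nontreated lines. Capitals mark the motif matches, and TGANTCA and TTCNNNGAA read the same on both strands.
Il1a, chr2:129309973-129310222, minus strand: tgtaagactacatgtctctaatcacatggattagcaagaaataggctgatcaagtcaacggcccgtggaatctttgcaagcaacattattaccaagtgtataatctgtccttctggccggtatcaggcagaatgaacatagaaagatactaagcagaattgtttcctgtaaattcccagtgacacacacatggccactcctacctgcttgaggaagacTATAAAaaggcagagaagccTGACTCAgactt
Il1f9, chr2:24186226-24186475, plus strand: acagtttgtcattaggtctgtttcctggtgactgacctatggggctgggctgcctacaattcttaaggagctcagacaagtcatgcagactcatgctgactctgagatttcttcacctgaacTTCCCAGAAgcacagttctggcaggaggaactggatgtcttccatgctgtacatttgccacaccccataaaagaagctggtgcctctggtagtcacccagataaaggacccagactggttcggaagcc
Il1rn, chr2:24336610-24336849, plus strand: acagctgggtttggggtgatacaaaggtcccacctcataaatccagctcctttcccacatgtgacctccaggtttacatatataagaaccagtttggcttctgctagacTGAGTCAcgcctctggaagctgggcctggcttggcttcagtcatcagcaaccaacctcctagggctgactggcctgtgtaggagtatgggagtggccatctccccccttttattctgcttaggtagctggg
The Il1a sequence held TATAAA at -32 to -27 and an AP-1 site at -12 to -6 from the start, the Il1f9 sequence a STAT site at -128 to -120, and the Il1rn sequence an AP-1 site at -141 to -135. The Il1rn stretch is printed as 240 bases and ends 10 bases before the start from which its positions are counted. Among 32851 promoters, TATAAA was found in 12.4%, TTCNNNGAA in 7.02%, TGANTCA in 6.75%, the NF-κB consensus in 3.9% and the interferon-response core in 2.98%. In all, 7 of the 13 starts of the members held at least 1 match. The share of all promoters with any of these motifs was not counted, so nothing is read from this count. The other matches were an NF-κB consensus before 1 start of Il1r1 and TATAAA before Il33 and Il18. For Il33 the TATAAA matches lay at -203 to -198 and -29 to -24 from its 2 starts. For Il18 the match lay at -175 to -170 on the opposite strand. None of these matches is a measurement of binding.

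Il1a, the alarmin ligand of Il1r1, lies on chromosome 2 (129299610 to 129309972, minus strand, GRCm38) and was nearly silent without treatment. Its level was 0, 0.110 and 0 TPM in Q7-C, 0.295, 0.568 and 0.806 TPM in Q7-T, 0 TPM in the 3 Q111-C libraries, and 6.88, 7.17 and 6.40 TPM in Q111-T. The treated groups did not overlap with their controls, and every Q111-T library was above every Q7-T library. In Q111 cells this is at least 41.8-fold above a floor of 12 estimated counts (about 3 read pairs) per library, a description without a test because this contrast chose the gene. In Q7 cells 36 read pairs stood against 2, a ratio of 19.8 with a counting interval of 5.11 to 170. The interval holds counting error only, not the spread between libraries, and the reads of Q7-C came from replicate 2 alone. Il1a reached 0.5 TPM only in treated libraries and so entered the test only through them. Its Q7 difference did not pass the test across all genes (edgeR quasi-likelihood, Benjamini-Hochberg adjusted p = 0.0528). The call was not stable: it passed under 6 of 23 alternatives, among them DESeq2 and the fits without Q7-C replicate 2 (adjusted p = 0.00432) or without Q7-T replicate 1 (adjusted p = 0.0489). Gm14023 overlaps Il1a on the opposite strand.

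Il1f6, which encodes IL-36α, was the highest of the induced ligands. It was at 0 TPM in all 6 nontreated libraries, at 1.78, 2.27 and 2.21 TPM in Q7-T, and at 28.8, 32.2 and 27.7 TPM in Q111-T. The treated lines did not overlap. Il1f6 was at least 7.19-fold higher in Q7-T than in Q7-C (adjusted p = 2.05e-04, and 1.60e-04 without the pair). It reached 0.5 TPM only in treated libraries and so entered this test only through them. With no filter on low values the edgeR adjusted p in Q7 cells was 8.56e-05. In Q111-T it was at least 81.2-fold higher than in Q111-C, again without a test. Q111-T was 3.35 ± 0.386 (SE) above Q7-T on the log2 scale, also a description.

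Il1f9, which encodes IL-36γ, was at 0 TPM in the 3 Q7-C libraries and at 1.03, 0.106 and 0.541 TPM in Q7-T. In Q111 cells it was at 0.155, 0 and 0 TPM without treatment and at 11.2, 11.4 and 9.92 TPM with it. The Q7-T value of 0.106 TPM rests on 7 estimated counts, under the floor. Il1f9 rose at least 3.02-fold in Q7-T (adjusted p = 0.0207), a call lost under 5 of 23 alternatives, including the fits without Q7-C replicate 2 (adjusted p = 0.0665) and without Q7-C replicate 3 (adjusted p = 0.0693), and kept without the pair (adjusted p = 0.0132). In Q111-T against Q111-C, 435 read pairs stood against 2, a ratio of 251 with a counting interval of 69.0 to 2077, without a test. The interval holds counting error only, not the spread between libraries, and the reads of Q111-C came from replicate 1 alone. Between treated lines, Il1f9 was 4.03 ± 0.934 (SE) higher in Q111-T on the log2 scale (adjusted p = 0.00814, and 3.66 with 0.00543 without the pair). It reached 0.5 TPM in 2 Q7-T libraries and so passed the filter only through Q111-T, where it was high. With no filter on low values the adjusted p was 0.00988. Il1a, Il1f6 and Il1f9 reached 0.5 TPM only in treated libraries and so passed the filter on low values only through them.

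**Figure D1:**
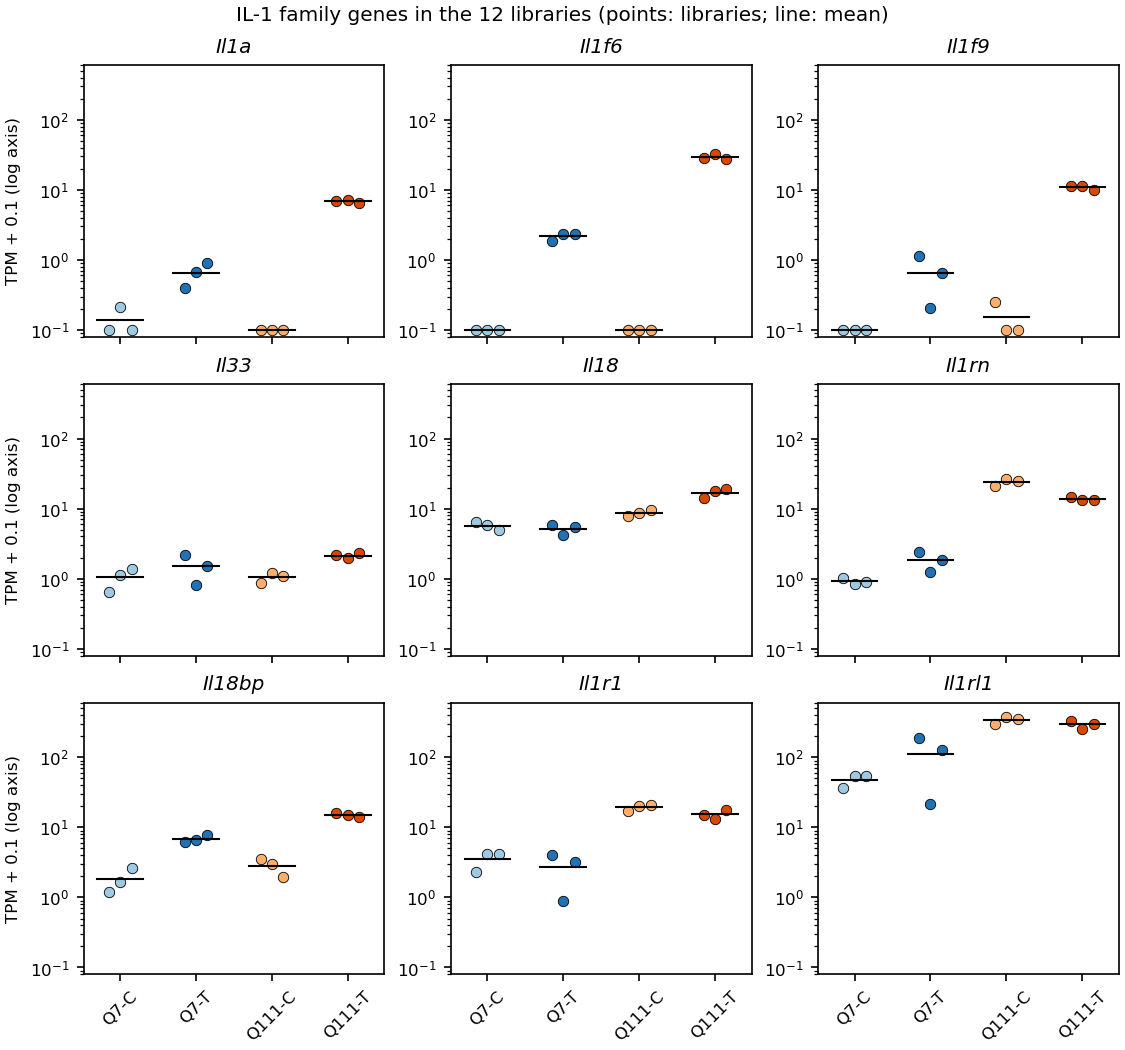
Level of the 9 measured IL-1 family genes (TPM + 0.1, log axis) in each library of Q7-C, Q7-T, Q111-C and Q111-T, where points are libraries and lines are group means. Il1a, Il1f6 and Il1f9 sit at or near 0 in nontreated cells and highest in Q111-T, while Il1rn, Il1r1 and Il1rl1 are high in Q111 cells with and without treatment.

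Il33, a nuclear alarmin and the ligand of ST2, stayed low. Its level was 0.542, 1.03 and 1.27 TPM in Q7-C, 2.06, 0.723 and 1.39 TPM in Q7-T, 0.770, 1.09 and 0.978 TPM in Q111-C, and 2.06, 1.87 and 2.19 TPM in Q111-T. The Q7 groups overlapped and the Q111 groups did not. Its log2 difference was 0.70 ± 0.298 (SE, adjusted p = 0.276) in Q7-T vs. Q7-C and 0.23 ± 0.296 (SE, adjusted p = 0.570) in Q111-T vs. Q7-T. In Q111-C vs. Q7-C it was -0.26 ± 0.298 (SE, adjusted p = 0.604), and on the TPM scale the sign was the opposite (0.03 by limma). Q111-T was 1.19 ± 0.300 (SE) above Q111-C on the log2 scale, without a test. Il18, the precursor that caspase-1 cleaves, was at 6.29, 5.65 and 4.85 TPM in Q7-C, 5.65, 4.10 and 5.40 TPM in Q7-T, 7.78, 8.45 and 9.32 TPM in Q111-C, and 14.0, 17.5 and 18.6 TPM in Q111-T. Its difference on treatment in Q7 was 0.00 ± 0.261 (SE, log2, adjusted p = 1), and Q111-C vs. Q7-C gave 0.24 ± 0.262 (SE, log2, adjusted p = 0.574). Between the treated lines Il18 was higher in Q111-T by 1.33 ± 0.266 (SE, log2, adjusted p = 0.00246), or 1.46 without the pair, and by 1.08 ± 0.264 (SE, log2) than in Q111-C, the last without a test. Bco2 overlaps Il18 on the opposite strand.

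Among the inhibitors, Il1rn, which encodes the IL-1 receptor antagonist, separated the lines before any treatment. It was at 0.929, 0.732 and 0.803 TPM in Q7-C and 21.2, 26.5 and 24.7 TPM in Q111-C, a log2 difference of 4.50 ± 0.237 (SE, adjusted p = 2.32e-07) with no overlap, and of 4.79 without the pair. It rose on treatment in Q7 cells to 2.28, 1.14 and 1.75 TPM, by 1.18 ± 0.211 (SE, log2, adjusted p = 0.00551), or by 1.46 without the pair (adjusted p = 1.60e-04), and this call was lost with limma on TPM at each of 3 pseudocounts and in the fit of the 2 groups alone. In Q111-T it was at 14.6, 13.2 and 13.1 TPM, lower than every Q111-C library, with a log2 difference of -0.72 ± 0.204 (SE), no test. Between treated lines it remained higher in Q111-T, by 2.61 ± 0.217 (SE, log2, adjusted p = 5.43e-06), or 2.62 without the pair. Il18bp, which encodes the soluble IL-18 inhibitor, was called on treatment but not between the lines. It was at 1.09, 1.57 and 2.55 TPM in Q7-C, 6.13, 6.59 and 7.77 TPM in Q7-T, 3.43, 2.91 and 1.89 TPM in Q111-C, and 16.1, 14.8 and 13.9 TPM in Q111-T. The rise in Q7 cells was 2.24 ± 0.307 (SE, log2, adjusted p = 7.56e-04), or 1.84 without the pair (adjusted p = 0.00424), and the difference in Q111 cells was 2.55 ± 0.309 (SE, log2), without a test. Q111-C vs. Q7-C gave 0.38 ± 0.296 (SE, log2, adjusted p = 0.425). In Q111-T vs. Q7-T the groups did not overlap, but the difference of 0.69 ± 0.293 (SE, log2) did not pass the test (adjusted p = 0.0850). Without the pair it was 0.96 (adjusted p = 0.0170, under 2-fold), and it passed with limma on TPM (1.08, adjusted p = 0.00805). Numa1 overlaps Il18bp on the opposite strand.

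Il1rl1, which encodes the IL-33 receptor ST2, was the most abundant member per length. It was at 35.9, 54.4 and 53.9 TPM in Q7-C and 299, 379 and 353 TPM in Q111-C, a log2 difference of 2.54 ± 0.436 (SE, adjusted p = 0.00125), or 2.49 without the pair. Treated Q7 libraries were spread over 186, 21.2 and 125 TPM, with the lowest value in Q7-T replicate 2, and overlapped the controls. The difference of 1.24 ± 0.418 (SE, log2) did not pass the test (adjusted p = 0.145), and without Q7-T replicate 2 it was 1.68 (adjusted p = 4.43e-05) and without the pair 1.60 (adjusted p = 1.24e-04). Q111-T was at 334, 254 and 301 TPM, -0.12 ± 0.412 (SE, log2) from Q111-C with overlap, no test. Between treated lines the difference of 1.18 ± 0.417 (SE, log2, adjusted p = 0.0428) was lost under 14 of 23 alternatives, the one without the pair included (0.79, under 2-fold). Leaving out 1 library ended the call for every library except Q7-T replicate 1, with values from 0.75, without Q7-T replicate 2 (adjusted p = 0.00381, under 2-fold), to 1.68, without Q7-T replicate 1. The table gives values per gene, so the membrane and the soluble form of ST2 cannot be told apart.

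Il1r1, the signalling receptor for IL-1, was at 2.20, 4.11 and 4.12 TPM in Q7-C and 17.0, 20.3 and 20.5 TPM in Q111-C, a log2 difference of 2.19 ± 0.321 (SE, adjusted p = 4.29e-04), or 2.06 without the pair. Treatment left the values at 3.97, 0.783 and 3.08 TPM in Q7-T (-0.33 ± 0.309, SE, log2, adjusted p = 0.711) and at 14.9, 13.1 and 17.7 TPM in Q111-T (-0.24 ± 0.307, SE, log2, no test). The lowest Q7-T value was again replicate 2. Q111-T stood 2.27 ± 0.322 (SE, log2, adjusted p = 2.51e-04) above Q7-T with no overlap, or 1.97 without the pair. Gm38070 overlaps Il1r1 on the same strand and did not exceed 0.0486 TPM.

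By count, 4 of 9 members were called in Q7-T vs. Q7-C, all of them higher (Il1f6, Il1f9, Il1rn and Il18bp). Without the pair 5 were called, with Il1rl1 added. A call needs an adjusted p below 0.05 with a change of 2-fold or more, and of all 16127 genes tested, 2.93% rose and 1.11% fell. Since Il1a, Il1f6 and Il1f9 entered the test only through treated libraries, they are left out of what is set against those shares: of the other 6 members, 2 rose and 0 fell, and 3 rose without the pair. In Q111-C vs. Q7-C, 3 of these 6 were higher (Il1rn, Il1r1 and Il1rl1) with and without the pair, against 7.62% higher and 7.61% lower among all genes. In Q111-T vs. Q7-T, 4 of these 6 were higher (Il1rn, Il1r1, Il1rl1 and Il18), and 3 without the pair, against 13.3% higher and 11.2% lower among all genes. In Q111-T vs. Q111-C, 6 of 9 were at least 2-fold higher and 0 lower (11.8% and 6.34% of all genes, without a test), and nothing is read from that share because the rule used this contrast. The comparisons share libraries, with the Q7-C, Q7-T, Q111-C and Q111-T groups each used in more than 1 of them.

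**Figure D2:**
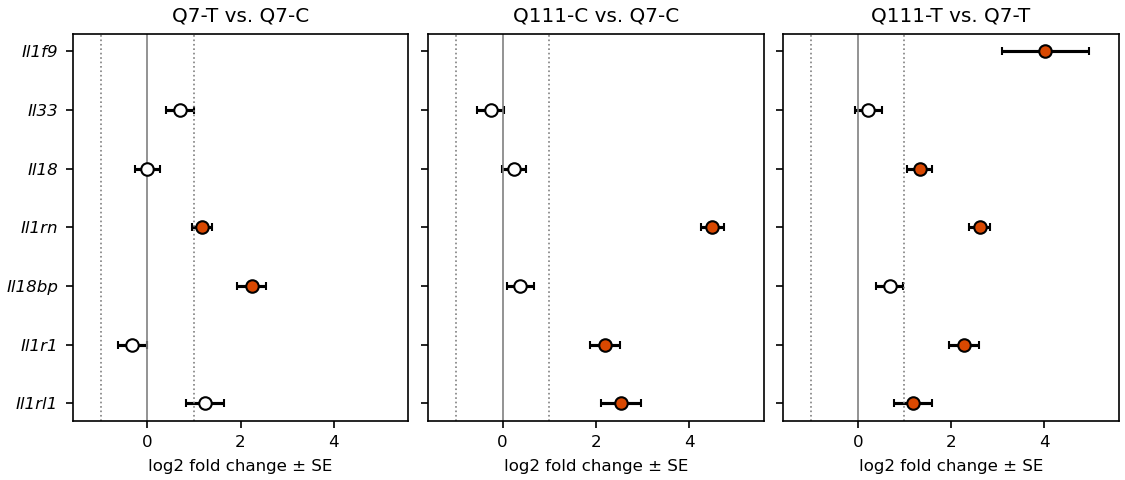
Log2 fold change (edgeR) of the 7 members other than Il1a and Il1f6 in the 3 comparisons that were tested, where points are estimates, bars are ± SE, filled points passed the test and the 2-fold threshold, and dotted lines mark 2-fold. Il1rn, Il1r1 and Il1rl1 lie to the right in both comparisons of the lines, and Il18bp in the treatment comparison. Il1f9 is shown only where neither group was at or under the floor.

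Of the measured ligands, Il1f9 and Il1f6 lie in a cluster on chromosome 2 that also holds Il1rn, Il1a lies far from it on the same chromosome, Il33 is on chromosome 19 and Il18 on chromosome 9. Both measured receptors lie in a cluster on chromosome 1. Between Il1f8 and Il1rn, the neighbours Il1f8 and Il1f5 did not exceed 0.0989 and 0.0548 TPM in any library, and Il1f10 has no row. Il1f9 and Il1f6 averaged 10.8 and 29.6 TPM in Q111-T beside these neighbours, and Il1rn at the end of the cluster was highest in Q111-C. In the receptor cluster, Il1r2 did not exceed 0.0753 TPM, and Il1rl2, the receptor of the IL-36 ligands, averaged 0.275 TPM in Q111-C and 0.357 TPM in Q111-T and at most 0.00764 TPM in the Q7 groups, all under 0.5 TPM. Il18r1 did not exceed 0.433 TPM, while Il18rap, the other IL-18 receptor subunit, lay between 8.71 and 46.8 TPM. The nearest gene profiles to Il1a over the 12 libraries were Aaas (Pearson r = 0.993, log2(TPM + 0.5)), Tor3a (0.986) and Il1f6 (0.986), and to Il1f6 Gm13703 (0.995), Ifi205 (0.993) and Gm19684 (0.992). For Il1rl1 they were Pex11a (0.979), M6pr (0.976) and Skap2 (0.973), and for Il33 Gna13 (0.986), Fbxl5 (0.965) and Vps54 (0.964). The points share their groups, so no p is given. Il1a and Il1f6 were both named for strong induction in Q111 cells, so nothing is read from their likeness.

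**Figure D3:**
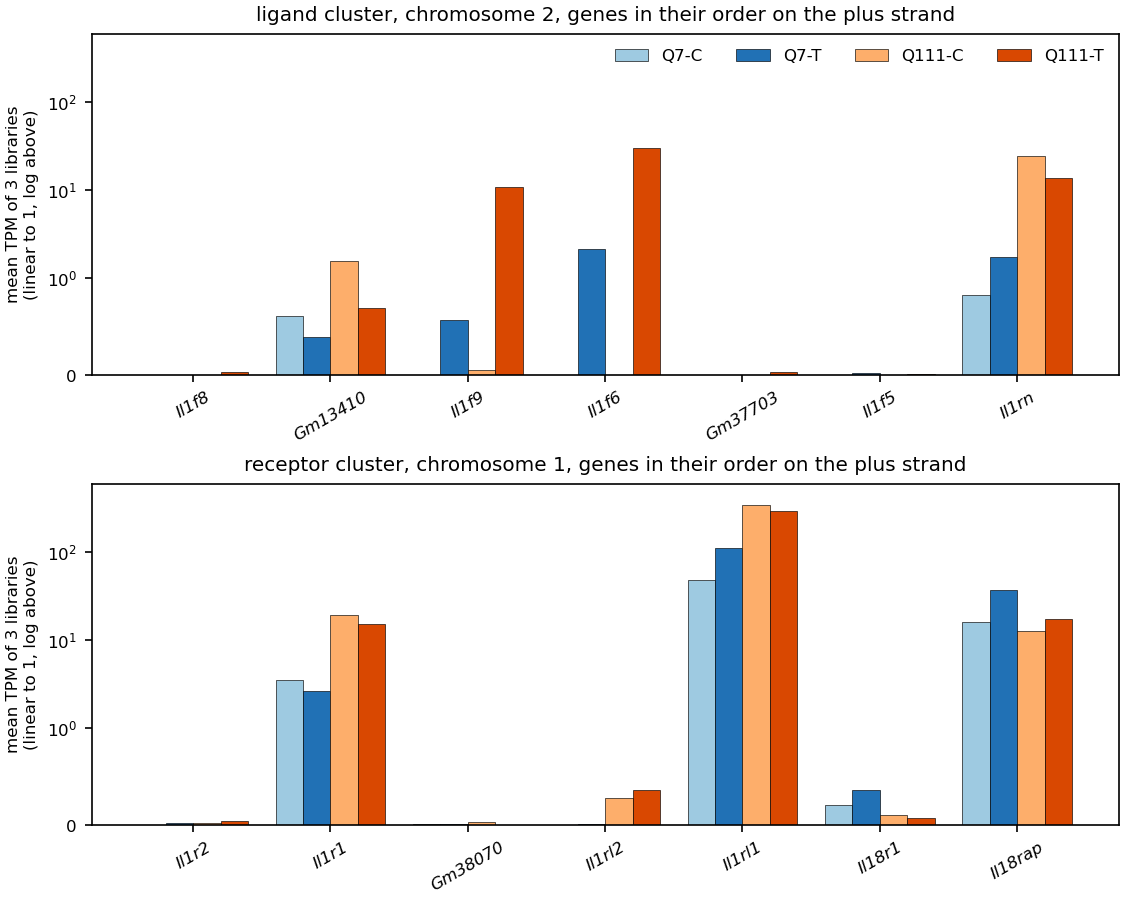
Mean TPM of 3 libraries per group for the genes of the ligand cluster and of the receptor cluster that have a row, in their order along the chromosome, where the axis is linear up to 1 and logarithmic above. In the ligand cluster Il1f9, Il1f6 and Il1rn carry the signal, and in the receptor cluster Il1r1, Il1rl1 and Il18rap do.

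Beyond the members, 56 pathway genes were listed by role, of which 54 have a row and 44 were tested. Of these, 20 rose and 0 fell in Q7-T vs. Q7-C, and 23 rose and 0 fell in Q111-T vs. Q111-C (8.28% and 2.96% of all genes in Q111, and 2.93% and 1.11% in Q7). Without the pair, 23 rose in Q7 cells. Of the 37 that pass the filter in nontreated libraries alone, 15 rose in Q7 and 16 in Q111 cells. The median log2 difference of the 44 genes was 1.21 in Q7 cells (1.17 with genes at the floor set to their bound) and 1.54 in Q111 cells, against 0.00 over all genes in both. The 44 include Casp1, Casp4, Csf2, Csf3, Cxcl2, Ccl20 and Icam1, which passed the filter on low values only with treated libraries. Nothing is therefore read from these medians, and none is given for the 37 genes. Of the target genes of the pathway, 10 of 14 rose in Q7 cells and 14 of 14 in Q111 cells. Those not called in Q7 cells, Csf2, Il6, Ptgs2 and Cxcl2, all had their lowest Q7-T value in replicate 2. The Q7 count is not given without the pair. The medians of the 14 target genes were 3.59 and 5.75, the latter 5.20 with bounds. Since Csf2, Csf3, Cxcl2, Ccl20 and Icam1 are among these target genes, nothing is read from their shares or medians. Whether the rise passed through IL-1 family ligands or came from IFNγ and LPS directly was not tested. Cxcl5, a neutrophil chemokine, rose by 6.34 ± 0.279 (SE, log2, adjusted p = 1.98e-07) in Q7 and by 7.59 ± 0.295 (SE, adjusted p = 7.97e-08) in Q111. Lcn2, an iron-sequestering acute-phase protein, rose by 7.37 ± 0.415 and by 7.83 ± 0.424 (SE, log2). Il6, the cytokine, was 0.0648, 1.92 and 1.53 TPM in Q7-C, 21.5, 3.61 and 13.0 TPM in Q7-T, 0.282, 0.470 and 2.98 TPM in Q111-C, and 574, 742 and 537 TPM in Q111-T. Its Q7 difference of 3.58 ± 0.948 (SE, log2) did not pass the test (adjusted p = 0.0529), while it rose by 9.06 ± 1.20 (SE, log2, adjusted p = 2.48e-04) in Q111 cells.

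Of 21 signalling genes, 6 rose in Q7 and 6 in Q111 cells and 0 fell. Of the genes called in both, the adaptor Myd88 rose by 1.03 ± 0.142 (SE, log2) in Q7 and 1.60 ± 0.144 in Q111, and Nfkbia, Tnfaip3, Irak3 and Zc3h12a, all known as brakes on the pathway, were also called in both lines, Zc3h12a by 3.14 ± 0.149 and 3.21 ± 0.149 (SE, log2). Of the 10 processing genes, 6 were tested and 3 rose in each line: Casp1, Casp4 and Gsdmd. Casp1 and Casp4 passed the filter on low values only with treated libraries. Casp4 went from at most 0.149 TPM to between 10.1 and 12.9 TPM in Q7 cells, and from between 0.383 and 0.729 TPM to between 16.4 and 17.7 TPM in Q111 cells. Casp1, the IL-18-cleaving protease, reached 6.19, 5.37 and 6.52 TPM in Q7-T but 0.452, 0.891 and 0.848 TPM in Q111-T, a log2 difference of -3.43 ± 0.763 (SE, adjusted p = 0.00459). Aim2, a DNA sensor, was at 0.174 TPM or less in Q7 libraries and between 3.56 and 5.39 TPM in Q111 libraries. The calpains Capn1 and Capn2 were tested and called in no comparison, with Capn2 at -0.89 ± 0.155 (SE, log2, adjusted p = 0.00183, under 2-fold) in Q111-T vs. Q111-C. Nlrp3, Nlrc4, Pycard and Ctss did not pass the filter on low values. These 6 genes were named after their values were seen.

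Between the lines, 6 pathway genes were higher and 1 lower in Q111-C vs. Q7-C, against 7.62% and 7.61% of all genes. In Q111-T vs. Q7-T, 14 were higher and 3 lower of the 44, against 13.3% and 11.2% of all genes, and both pairs of counts were the same without the pair of libraries. In the interaction of line and treatment, 5 were higher and 1 lower (3.52% and 1.2% of all genes): Csf2, Il6, Ptgs2, Csf3 and Ccl2 were higher and Casp4 was lower. Csf2, Csf3 and Casp4 passed the filter on low values only with treated libraries. Of the 37 genes that pass it in nontreated libraries alone, 3 were higher and 0 lower in the interaction. For these 37, 12 were higher and 2 lower in Q111-T vs. Q7-T, and 5 higher and 1 lower in Q111-C vs. Q7-C. The total of 6 interaction calls among the 44 genes was 10 without Q7-C replicate 1 and Q7-T replicate 2, and 3 without Q7-C replicate 2. Il18rap was the only one of 3 tested receptor genes that was called, higher by 1.38 ± 0.229 (SE, log2, adjusted p = 0.00321) on treatment in Q7 cells and with a log2 difference of -1.47 ± 0.229 (SE, adjusted p = 4.68e-04) in Q111-T vs. Q7-T.

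**Figure D4:**
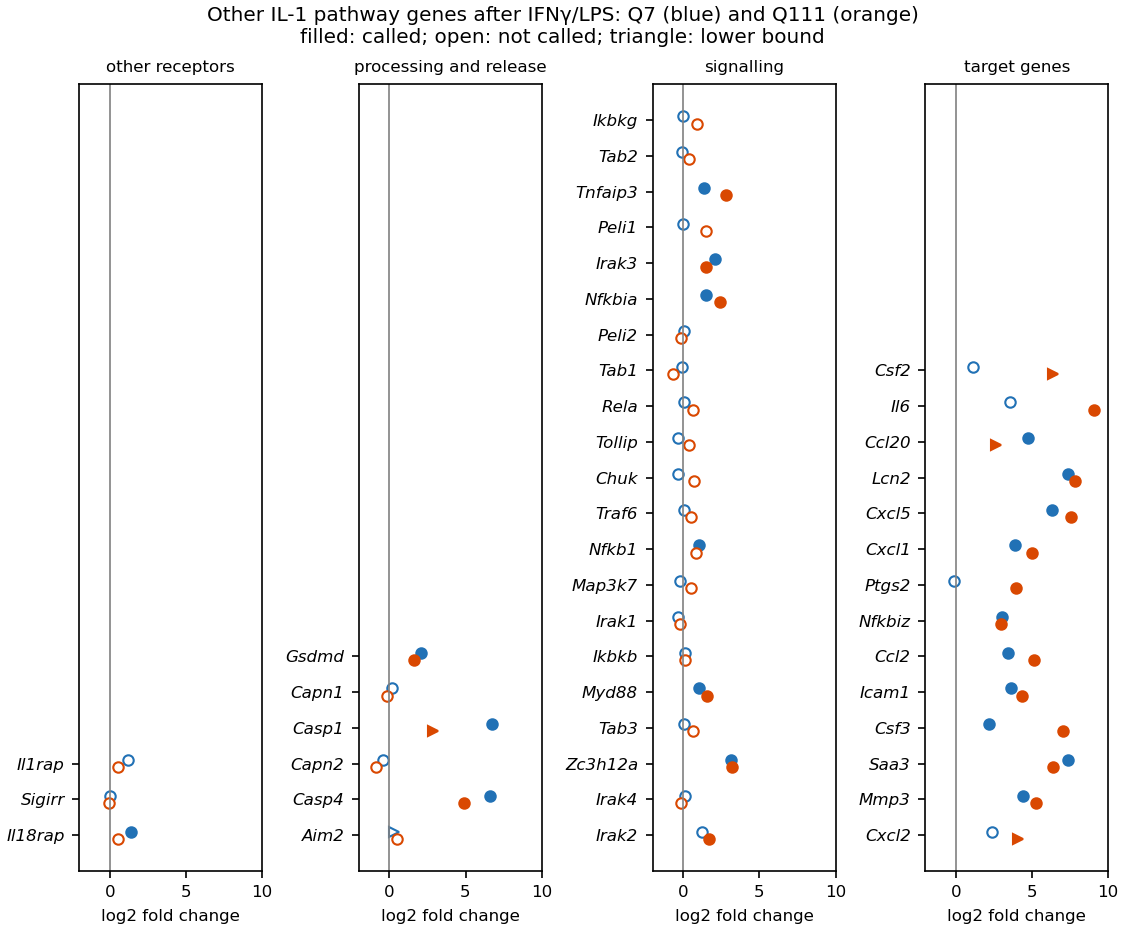
Log2 fold change on treatment in Q7 (blue) and Q111 (orange) cells for the tested pathway genes outside the members, where filled symbols passed both the test and the 2-fold threshold, open symbols missed at least 1 of them, and triangles are lower bounds against a group at or under the floor. All 14 target genes are filled in Q111 cells and 10 of them in Q7 cells. Csf2, Csf3, Cxcl2, Ccl20 and Icam1 among them passed the filter on low values only with treated libraries. Most signalling genes are open in both lines, with a median over all 21 of 0.06 in Q7 and 0.64 in Q111 cells.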

How the data were processed

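RNA-seq libraries from poly(A) RNA were prepared with a stranded protocol and sequenced from both ends; per the labels and the study's methods, the authors trimmed reads with Cutadapt, mapped them with HISAT2 to GRCm38 (Ensembl release 101) and estimated expression with StringTie and Ballgown (versions not given in the sources used here). The authors deposited, for each gene and library, TPM values and estimated counts as whole numbers. Low counts fell on multiples of 4 between 1.33 and 1.89 times as often as on other even numbers, so 1 read pair was taken as about 4 counts and 12 counts in a library as the floor (counting error only).

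The 16127 genes that reached 0.5 TPM in 3 or more libraries entered one fit of all 12 libraries with edgeR 4.0.16 (TMM, quasi-likelihood test; R 4.3.3), and p-values were adjusted by Benjamini-Hochberg over all of them. Called genes passed an adjusted p of 0.05 and changed 2-fold or more. The script was checked on simulated data. The members, lists and tests were chosen with earlier results of these data known. Members were named in all libraries; of each list, genes past both thresholds were eligible, and for 4 members the 3 genes with the most similar profile. Alternatives were DESeq2 1.42.0, limma 3.58.1 on log2(TPM + 0.5, 0.1 or 1), other filters and scalings, counts divided by 4, only the 2 groups compared, a replicate block and each library left out. Il1b was not analysed here.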

Additional observations from a re-analysis of the deposited data

Results flagged for a closer look

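Il1rn responded in opposite directions in the lines, which was not tested: the ratio of its mean TPM in treated to nontreated cells was 2.10 in Q7 and 0.565 in Q111 cells, and the treated libraries lay outside the range of their controls in both. Pathway genes whose response differed between the lines in a test of the interaction (edgeR quasi-likelihood, adjusted over all genes) were Csf2, with an interaction log2 fold change of 7.75 (adjusted p = 0.0118), Il6 at 5.48 (adjusted p = 0.0310), Csf3 at 4.85 (adjusted p = 0.00338), Ptgs2 at 4.05 (adjusted p = 0.00138), Ccl2 at 1.71 (adjusted p = 0.0121) and Casp4 at -1.71 (adjusted p = 0.0398). In Q111-C, Csf2 was at or under the floor (0, 0.201 and 0 TPM), so the size of its fitted interaction value is not a measured fold change. Csf2, Csf3 and Casp4 passed the filter on low values only with treated libraries.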

How the results depend on the processing

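Under 23 alternatives, 16 of the 23 tested member comparisons kept their call. The 7 others were Il1a, Il1f9, Il1rn and Il1rl1 in the Q7 response to treatment, Il1f9 between the nontreated lines, and Il1rl1 and Il18bp between the treated lines. The count of 4 members called in the Q7 response was 2 with limma on log2(TPM + 0.5), 2 with limma on log2(TPM + 1) and 2 in the fit of the 2 groups alone, and the cause was not tested. Without Q7-C replicate 1 and Q7-T replicate 2, an alternative chosen after seeing the data, 10 pathway genes were called in the interaction instead of 6. With 1 library left out, the called members ranged from 3 to 5 in the Q7 response, 3 to 3 between the nontreated lines and 4 to 5 between the treated lines, and 5 to 6 were past 2-fold in the Q111 response. The called pathway genes ranged from 16 to 22 in the Q7 response, 22 to 24 in the Q111 response, 6 to 9 between the nontreated lines, 17 to 23 between the treated lines and 3 to 7 in the interaction, with 3 reached without Q7-C replicate 2. On the TPM scale with limma (pseudocount 0.5) the median of all genes shifted by 0.27 between the nontreated lines, 0.34 between the treated lines, -0.16 in the Q7 response and -0.10 in the Q111 response (log2). Higher genes then made up 66.0% and 79.1% of calls between the nontreated and the treated lines, against 50.0% and 54.2% by edgeR.

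The labels only number the libraries, and the samples were treated as unpaired. Correlations of same-numbered deviations ran from -0.582 to 0.45. With 3 libraries per group this range cannot exclude a pairing. A replicate block gave 4, 3 and 5 called members in the Q7 response and between the nontreated and treated lines, the counts found without it, and 6 past 2-fold in the Q111 response. With the block, 18 and 23 pathway genes were called in the Q7 and Q111 responses, 7 and 19 between the nontreated and treated lines, and 5 in the interaction.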
